A study of Rattus norvegicus with 12 samples.

Results

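The interferon-induced genes described here are Ifit1, Ifit2, Ifit3, Mx1, Mx2, Isg15, Irf7, Rsad2 and Cxcl10, 9 of the 14217 genes that a probe set of the array names alone. They were chosen by symbol, and every probe set annotated to 1 of the 9 symbols was taken, which gave 11 probe sets, with 2 each for Ifit2 and Mx2. Values are the deposited log2 signals of Affymetrix Rat Genome 230 2.0 arrays, with 1 array per whole lung of a male Sprague-Dawley rat and 12 arrays in all. The 4 groups of 3 lungs were congestive heart failure (CHF) with ketotifen, CHF with placebo, sham surgery with ketotifen and sham surgery with placebo. CHF was produced by a clip on the supracoronary aorta of juvenile rats weighing 91 ± 9 g, studied 9 weeks later; age-matched sham rats had the operation without the clip. Ketotifen, a mast cell stabiliser, was given at 1 mg per kg per day in drinking water from the day after banding; the series' description calls the CHF rats without it untreated, where the sample labels say placebo. The model is pressure overload set by a fixed clip in growing animals, and the tissue is a mixture of all lung cells. In such tissue, fewer cells of a type and less RNA per cell cannot be told apart.

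Interferons are cytokines, and those of type I are released by cells after sensing foreign or misplaced nucleic acids. Type I interferons act through a receptor on nearly every cell and transcription factors that bind the interferon-stimulated response element (ISRE) in target promoters; interferon gamma acts through a receptor of its own. The induced genes code for antiviral proteins, for factors such as IRF7 that strengthen the response, and for chemokines such as CXCL10 that attract T cells and NK cells, and in the lung they are best known from respiratory virus infection.

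RefSeq promoter sequences (build GRCr8, 250 bases before to 50 bases after an annotated start) were matched for 5 of the 9 genes, Ifit3, Mx1, Irf7, Rsad2 and Cxcl10. The ISRE core searched for was GAAA, any 2 bases and GAAA again, read on both strands, and it was present in 4 of these 5 promoters and in 1312 of all 33469 promoters of that length, or 3.92%. The 4 that hold it are printed 5′ to 3′ on the gene's strand, to show this element and what else the Cxcl10 promoter carries. Capitals mark the ISRE core and, in Cxcl10, also each match to the NF-kappaB pattern (GGG, any 5 bases and CC).
Cxcl10: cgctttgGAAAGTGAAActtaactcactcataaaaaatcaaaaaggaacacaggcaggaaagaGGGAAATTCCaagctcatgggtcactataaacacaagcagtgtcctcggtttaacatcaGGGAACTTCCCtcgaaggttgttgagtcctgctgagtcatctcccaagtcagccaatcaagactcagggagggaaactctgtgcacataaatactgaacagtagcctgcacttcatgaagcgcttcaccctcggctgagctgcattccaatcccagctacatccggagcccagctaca
Irf7: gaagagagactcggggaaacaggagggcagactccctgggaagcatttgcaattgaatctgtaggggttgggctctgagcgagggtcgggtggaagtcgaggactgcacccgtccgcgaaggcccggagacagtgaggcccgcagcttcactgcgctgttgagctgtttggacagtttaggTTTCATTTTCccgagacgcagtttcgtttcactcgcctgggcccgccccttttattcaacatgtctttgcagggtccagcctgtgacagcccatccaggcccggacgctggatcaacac
Ifit3: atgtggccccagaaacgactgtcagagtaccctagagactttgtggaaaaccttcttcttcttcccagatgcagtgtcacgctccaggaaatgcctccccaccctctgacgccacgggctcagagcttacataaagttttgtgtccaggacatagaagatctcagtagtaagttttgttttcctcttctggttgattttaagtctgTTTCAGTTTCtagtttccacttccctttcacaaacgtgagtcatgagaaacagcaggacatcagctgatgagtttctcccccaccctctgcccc
Rsad2: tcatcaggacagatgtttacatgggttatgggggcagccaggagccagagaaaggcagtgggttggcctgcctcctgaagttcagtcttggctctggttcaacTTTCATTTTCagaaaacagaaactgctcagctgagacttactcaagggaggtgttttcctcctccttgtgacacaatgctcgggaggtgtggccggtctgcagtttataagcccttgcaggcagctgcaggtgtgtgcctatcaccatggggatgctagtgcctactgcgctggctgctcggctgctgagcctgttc
These windows lie at chr14:15988816-15989115 on the plus strand for Cxcl10, chr1:205799974-205800273 on the minus strand for Irf7, chr1:241527076-241527375 on the plus strand for Ifit3 and chr6:48788071-48788370 on the minus strand for Rsad2. The ISRE core began 243 bases before the start in Cxcl10, on the gene's strand, and 147, 69 and 44 bases before the start in Rsad2, Irf7 and Ifit3, where it read on the opposite strand. The start here is the one each window was cut from. On the minus strand, the RefSeq gene spans of Irf7 (chr1:205796956-205800543) and Rsad2 (chr6:48774985-48788245) begin upstream of that start. The whole Irf7 window lies inside its gene span. The Cxcl10 promoter also held the NF-kappaB pattern at 187 and 128 bases before the start, the second of them overlapped by a match on the other strand; this pattern is common, being present in 47.27% of all promoters and in 4 of the 5 matched here. No match to the ISRE core was found in the Mx1 window, which says only that these letters are absent from it. In the RefSeq annotation Ifit2, Ifit3 and Ifit1 are neighbours on chromosome 1, at chr1:241515735-241521799, chr1:241527326-241532469 and chr1:241565197-241567262, and Mx1 and Mx2 lie on chromosome 11, at chr11:50269056-50294699 and chr11:50375101-50399373.

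Some arrays stood apart before any interferon gene was considered. The 3′ minus 5′ difference of the beta-actin control probe sets, which grows as RNA degrades, was 4.52 in sham ketotifen lung 2, 4.23 in sham placebo lung 2 and 3.90 in sham placebo lung 3, against 2.90 to 3.45 in the other 9 lungs. The mean log2 signal of 6 cardiomyocyte markers was 5.46 and 8.52 in sham ketotifen lungs 1 and 2 and 7.40 in sham placebo lung 3, and no higher than 2.82 elsewhere. CHF ketotifen lungs 1 and 3 were the most alike pair of arrays, with a root mean square log2 difference of 0.26, and the next pair, sham placebo lung 1 and sham ketotifen lung 3, stood at 0.40. The mean of 7 lung epithelial markers lay between 13.0 and 14.06 in all 12 lungs, as the tissue label says. Nothing in the labels records a batch, and the number of arrays, not a read depth, limits the precision.

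A probe set entered the tests when its log2 signal was at least 4 in at least 3 arrays, and all 11 did. Of these, 8 were at or above 4 in all 12 arrays; the Ifit1 probe set reached it in 5, Cxcl10 in 4 and the Mx2 probe set 1369202_at in 6, so these 3 entered through the groups in which they were high. Near this floor the size of a fold change is uncertain. Differences are from limma fitted to all 12 arrays, with Benjamini-Hochberg adjustment over the 16536 probe sets kept and a threshold of 0.05.

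Irf7 codes for the transcription factor that amplifies type I interferon production. Its log2 signal was 9.39, 8.73 and 9.42 in CHF ketotifen lungs 1 to 3 and 8.52, 8.96 and 9.22 in CHF placebo lungs. In sham lungs Irf7 stood at 10.76, 10.13 and 8.23 with ketotifen and 9.46, 8.29 and 8.53 with placebo. The 2 highest and the lowest of the 12 values were all in the sham ketotifen group, and each pair of groups overlapped.

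Isg15 codes for a ubiquitin-like protein that is attached to other proteins during the interferon response. Its signal was 8.91, 7.73 and 8.33 in CHF ketotifen lungs and 7.19, 7.59 and 8.13 in CHF placebo lungs. In sham lungs Isg15 stood at 9.34, 9.36 and 7.04 with ketotifen and 7.76, 6.27 and 7.20 with placebo. Sham ketotifen lungs 1 and 2 were again the highest of all, and lung 3 of that group was below both sham placebo lungs 1 and 3. Rsad2 codes for viperin, an enzyme that makes a chain-terminating nucleotide against viral polymerases. It stood at 8.63, 7.58 and 8.38 in CHF ketotifen lungs and 6.65, 7.51 and 8.37 in CHF placebo lungs. In sham lungs Rsad2 stood at 8.31, 8.26 and 5.93 with ketotifen and 7.38, 6.03 and 7.42 with placebo. The lowest value was that of sham ketotifen lung 3, and in none of the 4 comparisons did the groups separate.

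Mx1 codes for a dynamin-like GTPase of the nucleus that blocks influenza-type viruses in rodents. Its signal was 8.40, 7.47 and 8.19 in CHF ketotifen lungs and 6.85, 7.14 and 7.48 in CHF placebo lungs. In sham lungs Mx1 stood at 8.99, 8.45 and 6.42 with ketotifen and 8.01, 6.34 and 7.18 with placebo. CHF ketotifen lung 2 lay just below CHF placebo lung 3, the only overlap between those groups. Ifit2 and Ifit3 code for tetratricopeptide proteins that restrain the translation of foreign RNA. For Ifit2, the brighter probe set 1384180_at gave 9.87, 8.95 and 9.74 in CHF ketotifen lungs and 8.51, 8.65 and 9.06 in CHF placebo lungs. The sham values of this probe set were 9.51, 9.61 and 8.50 with ketotifen and 9.21, 8.19 and 9.10 with placebo. Its other probe set, 1379568_at, ranged from 7.08 to 9.38 and followed it with r = 0.97 over the 12 arrays. Ifit3 stood at 8.74, 7.12 and 8.50 in CHF ketotifen lungs and 5.16, 6.24 and 7.71 in CHF placebo lungs. In sham lungs Ifit3 stood at 7.82, 7.58 and 5.82 with ketotifen and 7.27, 4.13 and 6.70 with placebo. For both genes each group overlapped the groups it was compared with, and sham placebo lung 2 was the lowest of all.

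**Figure D1:**
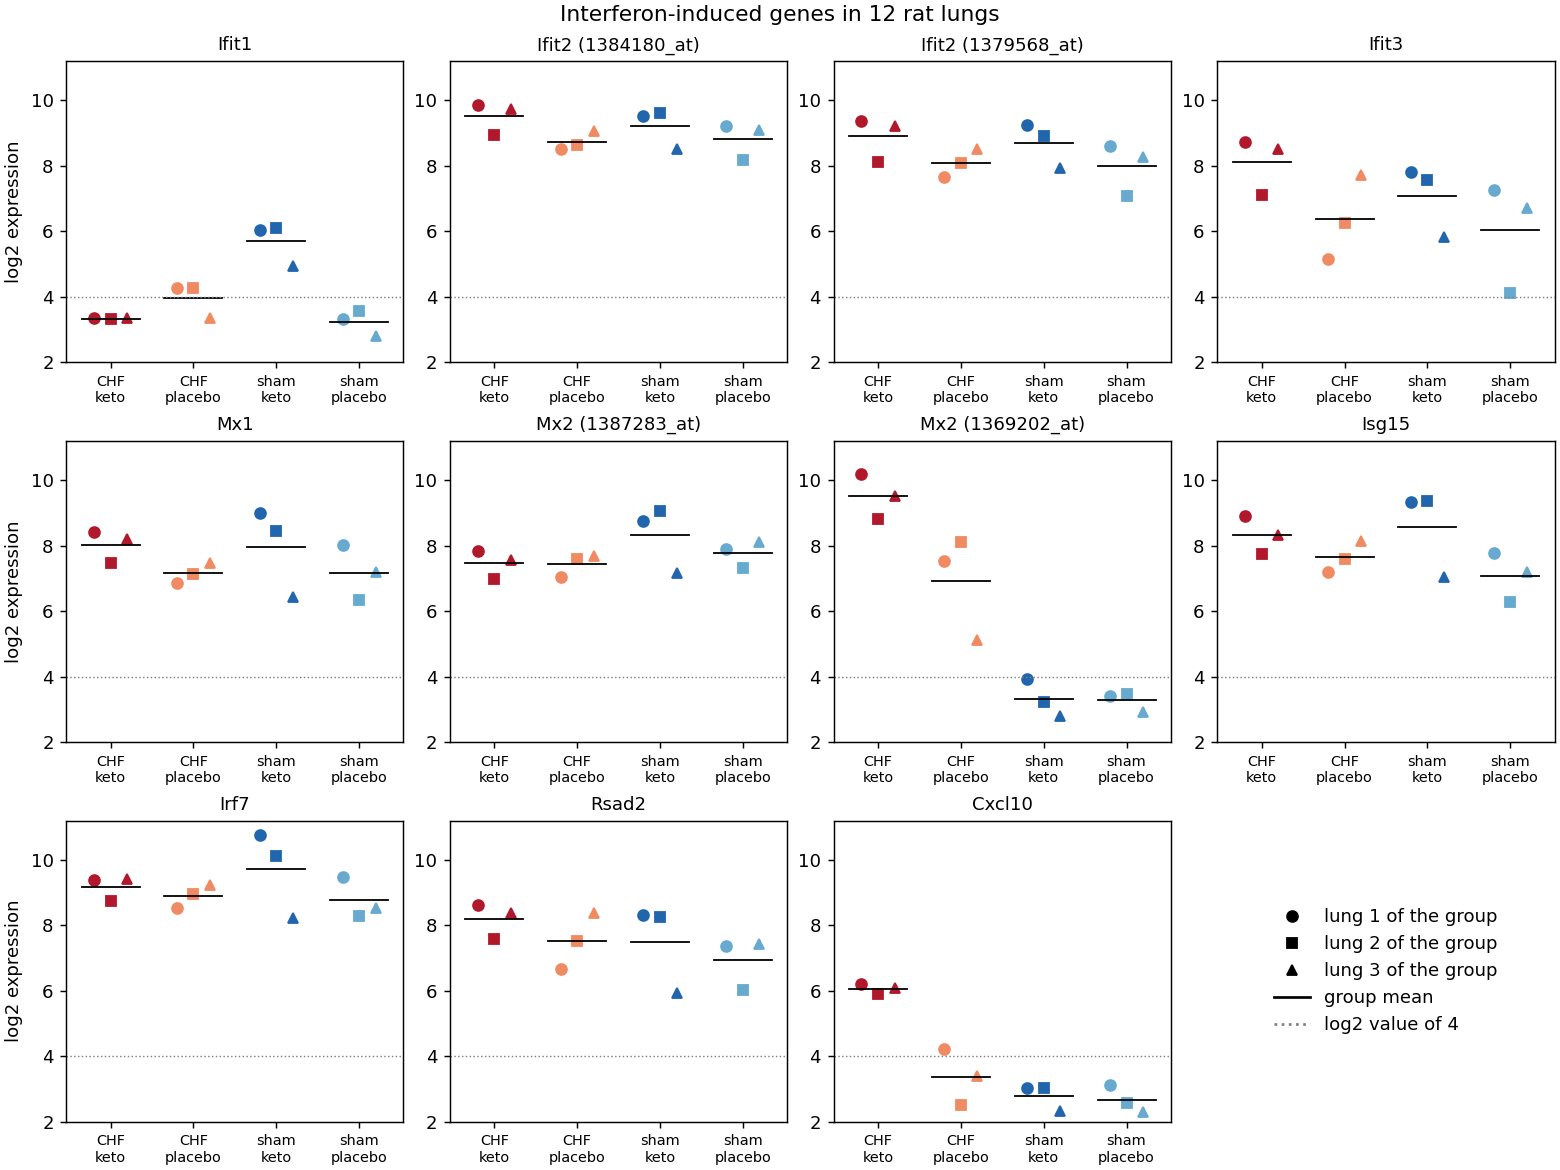
Log2 signal (vertical axes) of the 11 probe sets in each lung, with 1 panel per probe set and the 4 groups along the horizontal axis from CHF ketotifen (left) to sham placebo (right); points are single lungs (circle, square and triangle for lungs 1, 2 and 3), black lines are group means (n = 3) and the dotted line is the floor of 4. Cxcl10 is at 5.89 or more only in CHF ketotifen lungs, Ifit1 at 4.93 or more only in sham ketotifen lungs, and the groups of most other probe sets overlap.

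Cxcl10, the chemokine that draws cells bearing the receptor CXCR3, was higher in CHF ketotifen lungs than in any other group. Its signal was 6.20, 5.89 and 6.08 in CHF ketotifen lungs and 4.21, 2.51 and 3.40 in CHF placebo lungs. In sham lungs Cxcl10 stood at 3.03, 3.03 and 2.32 with ketotifen and 3.12, 2.58 and 2.29 with placebo. Every CHF ketotifen lung was above every other lung, and only CHF placebo lung 1 among the rest reached 4. The mean of 6.06 ± 0.16 in CHF ketotifen lungs was 6.43-fold that of 3.37 ± 0.85 in CHF placebo lungs (SD, n = 3 each; log2 difference 2.69 ± 0.39 SE, limma adjusted p = 0.00693), and the 95% interval of the difference was 1.83 to 3.54. Against the 2.79 ± 0.41 of sham ketotifen lungs it was 9.61-fold higher (3.27 ± 0.39, limma adjusted p = 0.00131); both comparisons use the same 3 CHF ketotifen lungs. Cxcl10 did not pass the test in CHF placebo against sham placebo lungs (0.71 ± 0.39, limma adjusted p = 0.333) or in sham ketotifen against sham placebo lungs (0.13 ± 0.39, limma adjusted p = 0.912). The difference between the ketotifen effect in CHF and that in sham lungs was 2.56 ± 0.55 and missed the threshold (limma adjusted p = 0.106) unless CHF placebo lung 1 was left out (2.97, limma adjusted p = 0.0126). Beside it, Il6, Ccl2 and Cxcl1, cytokine genes outside the interferon list, showed the same split: the signal of Il6 was 10.58 to 11.23 in CHF ketotifen lungs, 2.49 to 5.73 in CHF placebo lungs and 2.48 to 2.56 in all sham lungs. Ccl2 reached 10.75 to 11.48 in CHF ketotifen lungs and at most 6.18 elsewhere, and Cxcl1 reached 12.03 to 12.22 against at most 8.06.

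Ifit1, a relative of Ifit2 and Ifit3 whose protein in humans and mice binds viral RNA with an unmodified 5′ end, was higher in sham ketotifen lungs than in any other group. Its signal was 3.35, 3.31 and 3.34 in CHF ketotifen lungs and 4.27, 4.26 and 3.34 in CHF placebo lungs. In sham lungs Ifit1 stood at 6.05, 6.10 and 4.93 with ketotifen and 3.32, 3.57 and 2.79 with placebo. The lowest sham ketotifen lung was above the highest lung of the other groups, and the CHF ketotifen lungs sat below the floor of 4 and close together. Ifit1 was 5.13-fold lower in CHF ketotifen than in sham ketotifen lungs (means 3.33 ± 0.02 and 5.69 ± 0.66, SD, n = 3 each; -2.36 ± 0.35 SE, limma adjusted p = 0.00428). In sham ketotifen against sham placebo lungs (3.23 ± 0.40) it was 5.52-fold higher (2.47 ± 0.35, limma adjusted p = 0.036), and the ketotifen effect differed between CHF and sham lungs by -3.09 ± 0.50 (limma adjusted p = 0.0279). These last 2 calls depended on the arrays used. The first was lost in 8 and the second in 7 of the 12 fits that left out 1 lung. Without the 3 lungs of lowest RNA integrity the log2 differences were 2.17 and -2.79. That refit left lung 1 alone in the sham placebo group, so no call is read from it. The lungs whose removal ended the first call were sham placebo 2 and 3, CHF placebo 2, sham ketotifen 1 and 2 and all 3 CHF ketotifen lungs, with log2 differences of 2.25 to 2.64 in those fits and a limma adjusted p of up to 0.235; the second was lost for the same lungs except sham placebo 2, at -3.10 to -2.87 and a limma adjusted p of up to 0.127. Of the 3 sham ketotifen lungs 2 also carried the cardiomyocyte marker signal given above; lung 3, where those markers averaged 2.63, had the lowest Ifit1 value of its group. Sham placebo lung 3, where the markers averaged 7.40, had the lowest Ifit1 value of all 12 lungs, 2.79, and the part of this signal in the result was not tested.

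**Figure D2:**
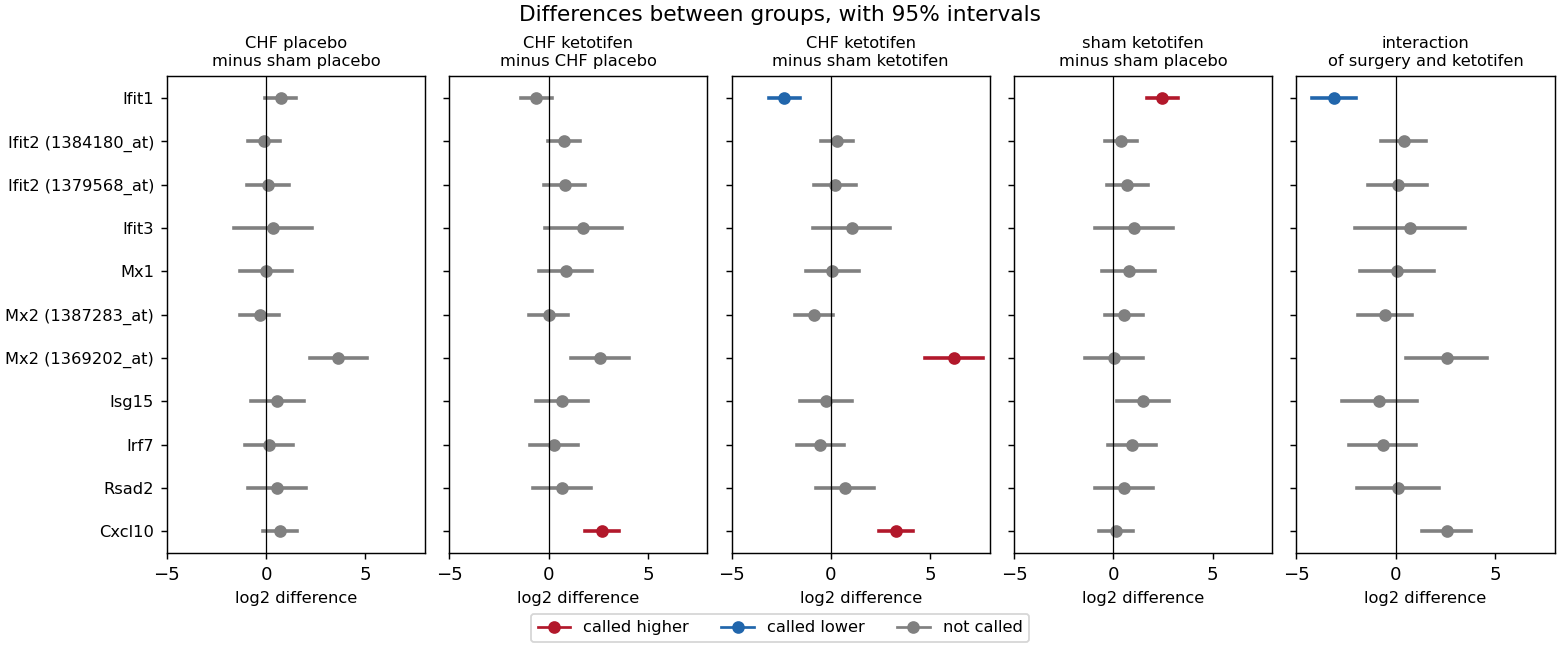
Log2 differences (horizontal axes) with 95% intervals for the 11 probe sets, 1 panel for each of the 5 comparisons; red marks probe sets called higher, blue marks those called lower and grey those not called. Coloured points belong to Cxcl10, Ifit1 and the Mx2 probe set 1369202_at; the grey intervals span 0, except those of Mx2 1369202_at in 3 panels, of Isg15 in sham ketotifen minus sham placebo and of Cxcl10 in the interaction.

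Mx2 codes for a GTPase related to Mx1 that in rats acts in the cytoplasm, and its 2 probe sets gave different answers. The probe set 1387283_at gave 7.83, 6.98 and 7.55 in CHF ketotifen lungs and 7.05, 7.59 and 7.69 in CHF placebo lungs. In sham lungs this probe set gave 8.74, 9.06 and 7.17 with ketotifen and 7.91, 7.31 and 8.10 with placebo. With this probe set the highest values were in sham ketotifen lungs 1 and 2, as for Irf7 and Isg15. The probe set 1369202_at gave 10.20, 8.81 and 9.51 in CHF ketotifen lungs and 7.52, 8.10 and 5.11 in CHF placebo lungs. Its sham values were 3.93, 3.22 and 2.78 with ketotifen and 3.40, 3.48 and 2.93 with placebo. Here every CHF lung was above every sham lung, and every CHF ketotifen lung was above every CHF placebo lung. Over the 12 arrays the 2 probe sets had r = -0.40, although the annotation assigns both to the same gene. With 1369202_at, CHF ketotifen lungs were 73.3-fold above sham ketotifen lungs (6.19 ± 0.66, limma adjusted p = 0.000743), a fold from sham signals below 4. The differences of 3.64 ± 0.66 between CHF placebo and sham placebo lungs and of 2.60 ± 0.66 between CHF ketotifen and CHF placebo lungs missed the threshold (limma adjusted p = 0.0604 and 0.0856). The first of these was called without CHF placebo lung 3 (4.54, limma adjusted p = 0.0084), whose value of 5.11 was the lowest of its group, and without sham placebo lung 1 (limma adjusted p = 0.0189). The second was called without CHF placebo lung 1 (limma adjusted p = 0.0436). With 1387283_at the CHF ketotifen lungs were lower than the sham ketotifen lungs by a difference of -0.87 ± 0.44, which was not called (limma adjusted p = 0.205) unless sham ketotifen lung 3 was left out (-1.44, limma adjusted p = 0.033). Mx2 is therefore not given a direction here.

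**Figure D3:**
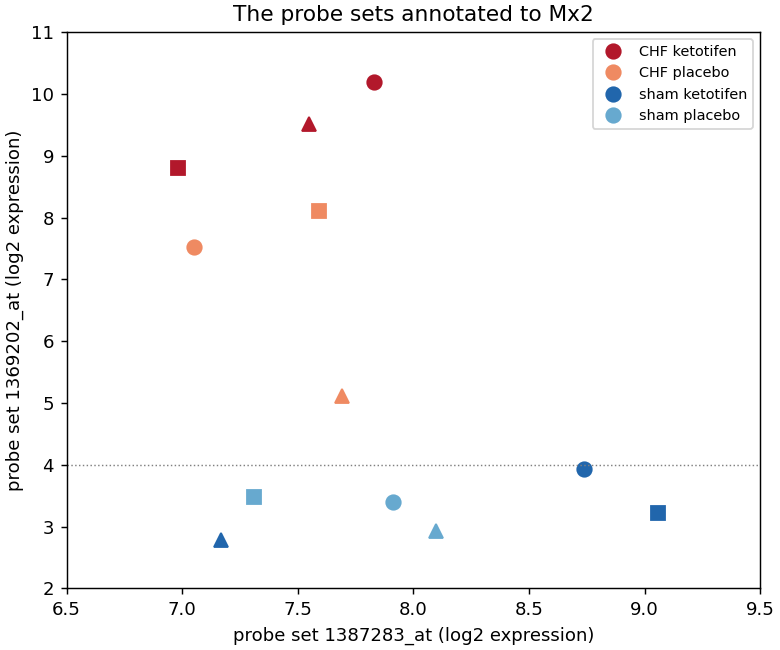
Log2 signal of the Mx2 probe set 1369202_at against that of 1387283_at, 1 point per lung, 1 colour per group and circles, squares and triangles for lungs 1, 2 and 3. The sham lungs lie below 4 on the scale of 1369202_at whatever their value for 1387283_at, and the CHF ketotifen lungs lie at 8.81 or more.

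The comparison of CHF placebo with sham placebo lungs asks what aortic banding did without the drug. With limma none of the 9 genes, each taken by its brightest probe set, was called, beside 0.169% of all 16536 probe sets; at an unadjusted p under 0.05 the counts were 0 of 9 genes and 20.1% of probe sets. The median log2 difference of the 9 genes was 0.33, against 0.02 over all probe sets, with values between -0.33 for Mx2 and 0.73 for Ifit1. By its brightest probe set no gene separated the groups, where 23.4% of all probe sets did. The other Mx2 probe set, 1369202_at, did separate them, with a difference of 3.64 ± 0.66 that was not called (limma adjusted p = 0.0604). The intervals were wide: for Ifit3, the difference of 0.33 had a 95% interval of -1.62 to 2.29, so a change of several fold either way was not detectable with 3 lungs.

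CHF ketotifen against CHF placebo lungs shows the drug's effect in heart failure. Of the 9 genes 1 was called, Cxcl10, and none was lower, beside 1.22% of all probe sets in either direction and 0.822% higher. Cxcl10 had passed the filter through the CHF ketotifen lungs, and its call was kept when no filter was used. The median of the 9 was 0.69, against -0.04 over all probe sets, and 8 of the 9 differences were positive, Ifit1 at -0.62 being the exception. Next to Cxcl10 stood Ifit3, with a difference of 1.75 ± 0.89 and a 95% interval of -0.20 to 3.71 (limma adjusted p = 0.338), and the differences of Mx1, Ifit2, Rsad2 and Isg15 were 0.86, 0.78, 0.69 and 0.68. Among the brightest probe sets that of Cxcl10 alone had groups without overlap, as had 9.86% of all probe sets in the higher direction. The other Mx2 probe set, 1369202_at, also lay higher without overlap, a difference of 2.60 ± 0.66 that was not called (limma adjusted p = 0.0856). In CHF ketotifen against sham ketotifen lungs 2 of 9 genes were called, Cxcl10 higher and Ifit1 lower, beside 13.0% of all probe sets (6.36% higher and 6.61% lower), and both separated their groups, as did 40.1% of probe sets. With any probe set of a gene counted, Mx2 joined them. The median there was 0.07, against -0.03 over all probe sets, and 5 of 9 differences were positive.

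Sham ketotifen against sham placebo lungs shows the drug without heart failure. Here too 1 gene was called, Ifit1, beside 0.0847% of all probe sets in either direction and 0.0423% higher, and all 9 differences were positive, with a median of 0.78 against -0.002 over all probe sets. Without the 3 lungs of lowest RNA integrity the differences of Ifit2, Ifit3, Mx1, Rsad2 and Cxcl10 were -0.20, -0.45, -0.31, -0.26 and -0.45. Those of Ifit1, Isg15, Irf7 and Mx2 were 2.17, 0.43, 0.04 and 0.04. That refit left lung 1 alone in the sham placebo group, the highest there in the mean of the 9 genes (7.05), so it gives sizes only. With all lungs Isg15 had the largest difference after Ifit1, 1.50 ± 0.60 (limma adjusted p = 0.313). Its means were 8.58 ± 1.33 in sham ketotifen and 7.08 ± 0.75 in sham placebo lungs (SD, n = 3 each). The groups overlapped for every gene but Ifit1, and 7.50% of all probe sets separated in this direction. Without sham ketotifen lung 3 the difference of Isg15 was 2.27, that of Irf7 1.68 and that of Mx1 1.54, none of them called (limma adjusted p = 0.103 for Isg15 and 0.124 for Irf7). Without sham placebo lung 2, the lowest of its group, the differences of Ifit3 and Rsad2 were 0.09 and 0.10, and that of Isg15 was 1.10, so single lungs set the size of most of these differences. The test of whether the drug's effect differed between CHF and sham lungs called 1 of 9 genes, Ifit1, beside 0.369% of all probe sets in either direction and 0.115% lower. Ifit1 had passed the filter through the sham ketotifen lungs, and when no filter was used neither this call nor that against sham placebo lungs was kept.

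The spread within groups was shared between most of these genes. With each group's mean removed, the correlation of a probe set with the mean of the other members over the 12 arrays was 0.99 for Isg15, 0.98 for Mx1, 0.94 for Irf7, Rsad2 and the brighter Ifit2 probe set, 0.92 for Mx2 1387283_at and 0.82 for Ifit3. Without sham ketotifen lung 3 and sham placebo lung 2, the arrays farthest out, these values lay between 0.79 and 0.98. The other Ifit2 probe set, 1379568_at, followed the pattern too (r = 0.92, and 0.91 without those 2 arrays). Outside it stood Cxcl10 (r = 0.31), Ifit1 (0.25) and Mx2 1369202_at (0.10), with 0.09, -0.05 and -0.01 without the same 2 arrays. These 3 probe sets reached the floor of 4 in only 4, 5 and 6 of the 12 arrays, so their spread is uncertain. The arrays share processing and RNA quality, and these correlations describe 12 lungs only. Averaged over the 9 genes, the log2 signal was 7.92, 7.08 and 7.72 in CHF ketotifen lungs and 6.49, 6.72 and 7.16 in CHF placebo lungs. In sham lungs the average was 8.06, 7.95 and 6.26 with ketotifen and 7.05, 5.86 and 6.59 with placebo. Sham ketotifen lungs 1 and 2 were the highest of the study, and lung 3 of that group was lower than all but sham placebo lung 2.

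**Figure D4:**
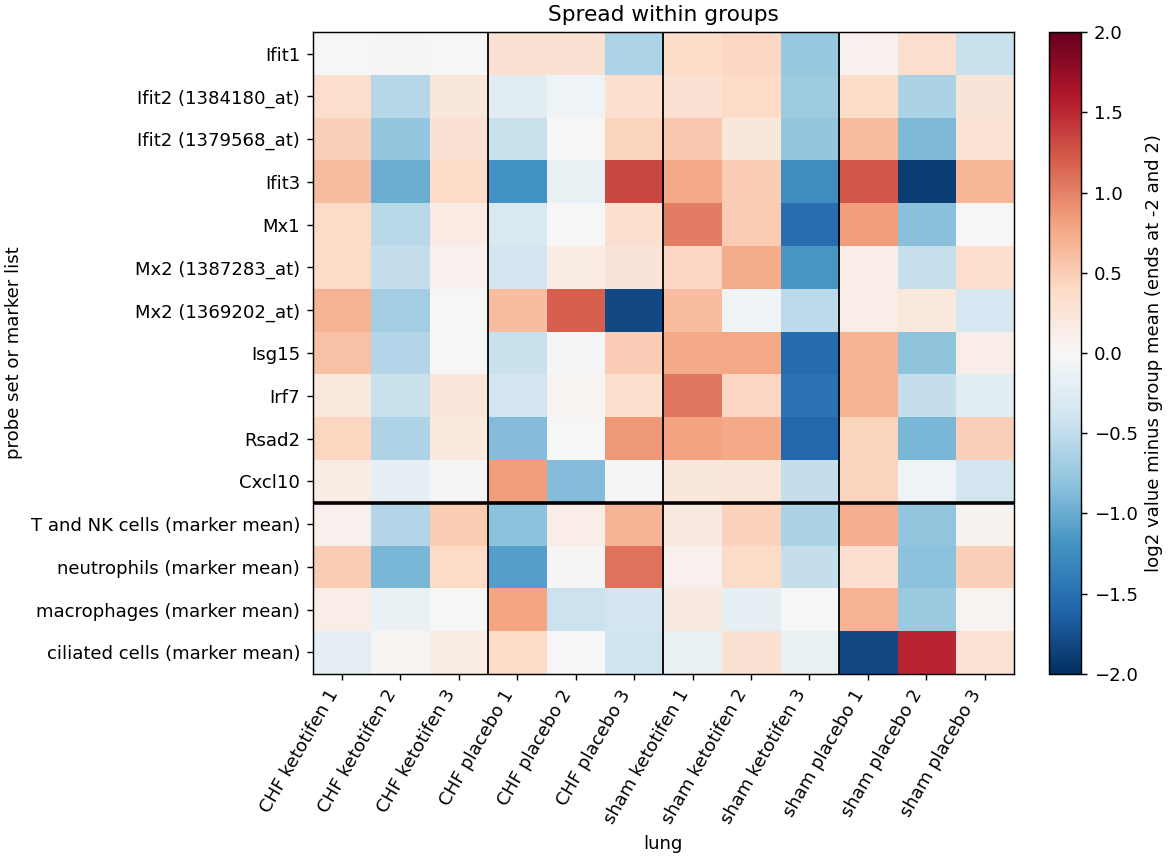
Deviation of each lung from its group's mean log2 signal (colour, red above and blue below) for the 11 probe sets and, below the line, for the means of 4 cell type marker lists, with 1 column per lung and the groups ordered from CHF ketotifen to sham placebo. Ifit2, Ifit3, Mx1, Isg15, Irf7, Rsad2 and Mx2 1387283_at are high or low together in the same lungs, with sham ketotifen lung 3 the lowest of its group throughout.

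Among 9731 other genes, 11 followed this within-group pattern with r of at least 0.9. They included 6 of the 65 further interferon system genes kept, or 9.2%, against 0.0517% of the remaining genes, a description and not a test. The closest were Usp18, which removes ISG15 from proteins and restrains the type I receptor (r = 0.99), Ifi27 (0.97) and the 2′-5′ oligoadenylate synthetase genes Oas1b (0.96) and Oas1a (0.94), whose products activate RNA decay. Itm2b (0.94), a membrane protein gene outside the interferon list, was as close. Before group means were removed, the genes most like the mean of the 9 were Usp18 (r = 0.937), Rtp4 (0.934), Oasl (0.921), Oas1a (0.915) and Gimap5 (0.911), over 12 arrays, and the least like were Ilkap (-0.921), Igsf5 (-0.897), Slc4a2 (-0.879), Fbxo31 (-0.872) and Sf3b3 (-0.869). Usp18 itself was called in no comparison, with signals of 7.74, 6.53 and 7.51 in CHF ketotifen lungs and 6.38, 6.54 and 6.85 in CHF placebo lungs. In sham lungs Usp18 stood at 8.28, 8.02 and 5.93 with ketotifen and 7.47, 5.84 and 6.85 with placebo.

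The mean of a list of T cell and NK cell markers moved with this pattern, though not every marker did. The mean of 10 such markers, all on the array and 7 of them kept, was 4.07 to 5.15 in CHF ketotifen lungs, 3.89 to 5.39 in CHF placebo lungs, 4.78 to 5.88 in sham ketotifen lungs and 3.47 to 4.98 in sham placebo lungs. Its within-group correlation with the mean of the 9 genes was 0.83 over the 12 arrays, and 0.80 without sham ketotifen lung 3 and sham placebo lung 2. The neutrophil marker mean gave 0.72, the macrophage mean 0.24 and the cardiomyocyte mean 0.51, the last falling to 0.04 without the same 2 arrays. The perforin gene Prf1 was 9.27, 9.30 and 8.03 in sham ketotifen lungs and 8.69, 4.36 and 6.89 in sham placebo lungs, while Cd3d stayed at 2.30 to 3.11 in all 12 lungs, below the floor. In sham placebo lungs 1 to 3 Cd3g was 5.72, 4.74 and 5.37, and Cd2, under the floor there, was 3.17, 3.48 and 3.85. The macrophage mean followed the groups: it was 9.43 to 9.70 in CHF ketotifen lungs, 8.12 to 9.34 in CHF placebo lungs, 7.50 to 7.86 in sham ketotifen lungs and 6.35 to 7.80 in sham placebo lungs. Of its 7 kept markers 6 were called higher in CHF ketotifen than in sham ketotifen lungs, as was the Mx2 probe set 1369202_at. The part of these cells in the interferon-induced signals was not tested.

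The wider interferon system was read from 92 further genes, of which 72 had a probe set and 65 were kept. The interferons could not be followed: the Ifnb1 signal was 2.20 to 2.25 and that of Ifng 2.21 to 2.31 over all 12 lungs, under the floor. In CHF placebo against sham placebo lungs none of the 65 genes was called with limma (13 at an unadjusted p under 0.05, where 20.1% of all probe sets were), and the smallest p-values were those of Socs3 (2.13 ± 0.41, limma adjusted p = 0.0725) and Ifi35 (0.65 ± 0.16, limma adjusted p = 0.102), a count that became 5 without sham placebo lung 1 and 1 without sham ketotifen lung 3. Without sham placebo lung 1 the probe sets called over the whole array in that comparison rose from 28 to 1491. In CHF ketotifen against CHF placebo lungs 1 of the 65 was called higher and none lower, beside 1.22% of all probe sets in either direction and 0.822% higher, and the list's median was 0.12. That gene was Socs3, a feedback inhibitor of cytokine signalling through STAT3, with signals of 6.94, 6.28 and 7.03 in CHF ketotifen lungs and 4.45, 4.74 and 4.64 in CHF placebo lungs. The 2 groups were well apart, a 4.40-fold difference (2.14 ± 0.41, limma adjusted p = 0.0344), yet the call was lost in 6 of the 12 fits without 1 lung, namely sham placebo 3, CHF placebo 2 or 3 or any CHF ketotifen lung (limma adjusted p of up to 0.133). It was also lost in 4 of the 6 other refits: without the filter, with the replicate block, with CHF ketotifen lungs 1 and 3 averaged and without the 3 lungs of lowest RNA integrity (limma adjusted p = 0.0769, 0.0505, 0.127 and 0.0596). Without CHF placebo lung 1 the list's count was 4, while the probe sets called over the whole array rose from 201 to 1211.

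In CHF ketotifen against sham ketotifen lungs 5 of the 65 genes were called higher and 1 lower, beside 6.36% and 6.61% of all probe sets and 13.0% in either direction, so the share called was no higher than over the whole array. The median was -0.08. The higher ones were Socs3 (3.14 ± 0.41, limma adjusted p = 0.00223), the CXCR3 ligand gene Cxcl9 (2.32 ± 0.51, limma adjusted p = 0.0176), the interferon gamma receptor subunit Ifngr2 (0.89 ± 0.20, limma adjusted p = 0.0187), the adaptor Myd88 (0.65 ± 0.14, limma adjusted p = 0.0195) and Tlr7, a receptor for single-stranded RNA (1.56 ± 0.43, limma adjusted p = 0.0387). The signal of Cxcl9 was 4.91 to 6.26 in CHF ketotifen lungs and 3.07 to 3.29 in sham ketotifen lungs, under the floor of 4. Elsewhere only CHF placebo lung 1 (5.63) reached the floor. Cxcl9 thus passed the filter mainly through the CHF ketotifen lungs, and the size of its difference is uncertain. Its call was kept when no filter was used. The lower one was Ifi44l (-1.24 ± 0.29, limma adjusted p = 0.023), an antiviral list gene with signals of 7.35, 7.18 and 7.23 in CHF ketotifen lungs and 8.59, 8.83 and 8.05 in sham ketotifen lungs. Its call was lost in 5 of the 12 fits without 1 lung and in 3 of the 6 other refits, without the filter, with CHF ketotifen lungs 1 and 3 averaged and without the 3 lungs of lowest RNA integrity (limma adjusted p = 0.0517, 0.0603 and 0.068). The calls of Cxcl9 and Ifngr2 were each lost in 2 of the 12 fits and without the lungs of lowest integrity (limma adjusted p = 0.0667 and 0.0535), and that of Myd88 in 4 of the 12 and with the 2 lungs averaged (limma adjusted p = 0.0569). The call of Tlr7 was lost without the filter and with the 2 lungs averaged. It was also lost without sham placebo lung 3, without sham ketotifen lung 1 and without any CHF ketotifen lung. The count of 6 moved with single lungs. It was 10 without sham placebo lung 2, 3 without CHF ketotifen lung 1 or 3 and 1 without CHF ketotifen lung 2. Over the whole array 2416 probe sets were called without sham placebo lung 2 and 708 without CHF ketotifen lung 2, against 2145 with all lungs. Socs3 was called in each of the 12 fits without 1 lung. Of the 28 antiviral effector genes kept 1, Ifi44l, was thus called in any comparison. In sham ketotifen against sham placebo lungs none of the 65 was called with limma (19 at an unadjusted p under 0.05, where 14.0% of all probe sets were), while 50 of the 65 differences were positive and the median was 0.24. Without sham placebo lung 1, 4 were called, while the probe sets called over the whole array rose from 14 to 699. With all lungs the smallest p-values in this comparison were those of Irf1 (0.90 ± 0.23, limma adjusted p = 0.187), a factor induced by interferon gamma, and Psmb9 (0.84 ± 0.22, limma adjusted p = 0.195), an immunoproteasome subunit. The 11 interferon gamma targets kept had a median of 0.74 in that comparison and of -0.42 in CHF ketotifen against sham ketotifen lungs, against 0.17 and -0.02 for the 28 antiviral effectors. None of the 65 differed in the drug's effect between CHF and sham lungs with limma (6 at an unadjusted p under 0.05, beside 10.8% of all probe sets), Psmb9 (-1.10 ± 0.31, limma adjusted p = 0.22) and Psme2 (-0.76 ± 0.23, limma adjusted p = 0.26) having the smallest p-values.

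**Figure D5:**
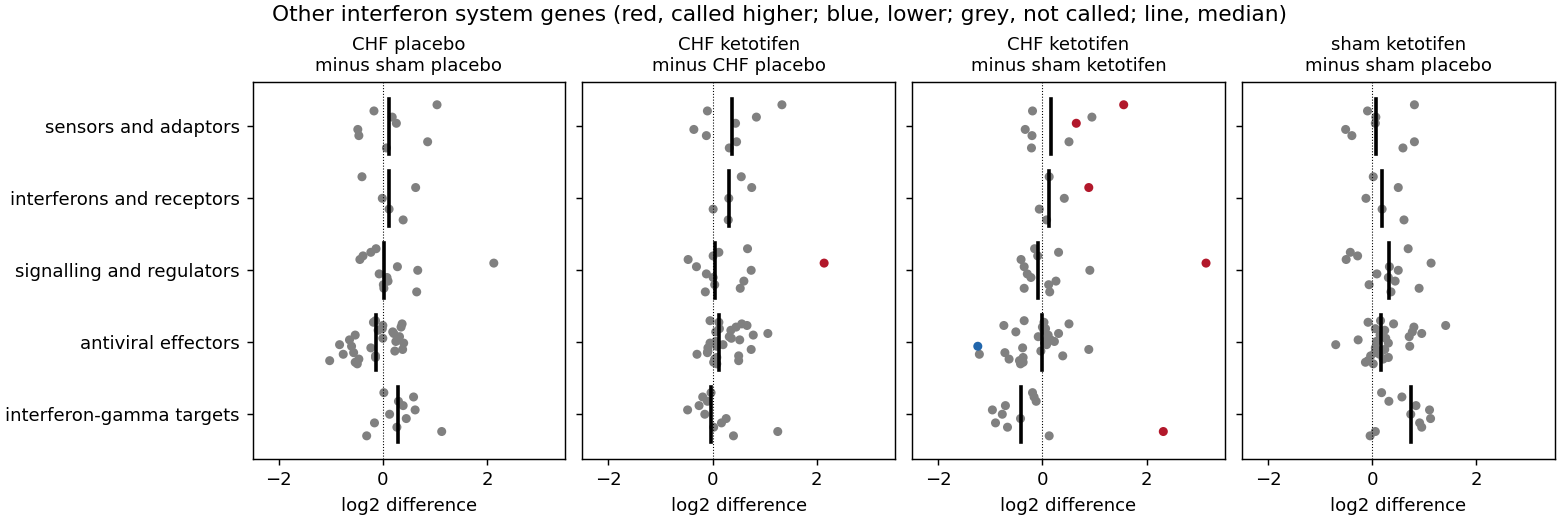
Log2 differences (horizontal axes) of the 65 further interferon system genes, 1 point per gene, by role (rows) and comparison (panels); red points were called higher, blue lower and grey not, and black lines are the medians. The called genes are Socs3 in CHF ketotifen minus CHF placebo and 6 genes in CHF ketotifen minus sham ketotifen; the interferon gamma targets have a median of 0.74 in sham ketotifen minus sham placebo.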

How the data were processed

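The deposited log2 signals were made by the authors with the R package GCRMA (R version 2.5.0; source: the submitters' processing notes); this method corrects background by probe sequence, normalizes by quantiles and gives 1 value per probe set. From these, 31099 probe sets less 57 controls were filtered to the 16536 with a log2 of at least 4 in at least 3 of 12 arrays. One linear model with 4 group means was fitted with limma 3.58.1 (R 4.3.3, lmFit, eBayes with trend, two-sided), checked on simulated data, and adjusted by Benjamini-Hochberg. A gene was counted by its brightest kept probe set. The labels describe separate rats. The p-values set differences between group means against the spread of lungs within the 4 groups, estimated from all 12 lungs. Of the wider list, genes called in a comparison were named, at most 4 each way, or else the 2 of smallest p; Tlr7 was named after its value was seen. The 5 genes most and least like the members' mean were also named. Members and lists were chosen with earlier results of these data known. Promoters were RefSeq's, build GRCr8. Alternatives were no filter, no intensity trend, quantile normalization, a replicate block, an average of the 2 most alike arrays, any probe set per gene, and leaving out the 3 arrays of lowest RNA integrity or each array in turn.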

Additional observations from a re-analysis of the deposited data

Results flagged for a closer look

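The effect of ketotifen on Ifit1 differed between CHF and sham lungs by the test of the difference itself: the log2 difference between the effects was -3.09 ± 0.50 (limma adjusted p = 0.0279). Ketotifen minus placebo was -0.62 ± 0.35 in CHF lungs and 2.47 ± 0.35 in sham lungs. All 3 sham ketotifen lungs were above all 3 sham placebo lungs, and the CHF groups overlapped. The probe set was at or above 4 in only 5 of the 12 lungs, 3 of them sham ketotifen lungs, so it entered the tests mainly through the group in which it was high. The call was lost in 7 of the 12 fits without 1 lung, without the filter (limma adjusted p = 0.0633) and with CHF ketotifen lungs 1 and 3 averaged (limma adjusted p = 0.113). Without the 3 lungs of lowest RNA integrity the difference was -2.79. That refit left lung 1 alone in the sham placebo group, so no call is read from it.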

How the results depend on the processing

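The calls of Cxcl10 in both comparisons of CHF ketotifen lungs, and of Ifit1 and Mx2 1369202_at in CHF ketotifen against sham ketotifen lungs, were kept in all 12 fits without 1 lung and in the 6 other refits, with limma adjusted p of at most 0.0492. The Ifit1 calls in sham ketotifen against sham placebo lungs and in the interaction were lost without the filter (limma adjusted p = 0.0676 and 0.0633). They were also lost with CHF ketotifen lungs 1 and 3 averaged (limma adjusted p = 0.0778 and 0.113). Without the 3 lungs of lowest RNA integrity these 2 differences were 2.17 and -2.79. That refit left lung 1 alone in the sham placebo group, so its comparisons with that group give sizes only. No called difference changed sign, and no sign change gave a call, but 23 uncalled differences changed sign in another refit and 20 in at least 1 fit without 1 lung. Without the 3 lungs of lowest integrity, CHF placebo against sham placebo was -0.52 for Ifit2 1379568_at, -0.90 for Ifit3, -0.12 for Isg15, -0.56 for Irf7 and -0.29 for Irf1, and CHF ketotifen against sham ketotifen was 0.14 for Isg15. In the same refit, sham ketotifen against sham placebo was -0.20 and -0.03 for Ifit2, -0.45 for Ifit3, -0.31 for Mx1, -0.04 for Mx2 1369202_at, -0.26 for Rsad2, -0.45 for Cxcl10, -0.15 for Cxcl9 and -0.04 for Myd88, and the interaction was 0.25 for Isg15 and Irf7 and 0.06 for Irf1. With CHF ketotifen lungs 1 and 3 averaged, Mx2 1387283_at was at -0.11 in CHF ketotifen against CHF placebo, Mx1 at -0.07 in CHF ketotifen against sham ketotifen, and the interaction at -0.08 for Ifit2 1379568_at, -0.05 for Mx1 and -0.02 for Rsad2. Leaving out 1 lung, CHF placebo against sham placebo ranged over -0.41 to 0.09 and -0.35 to 0.42 for Ifit2, -0.62 to 0.95 for Ifit3, -0.44 to 0.40 for Mx1, -0.09 to 0.49 for Irf7 and -0.11 to 0.18 for Irf1. CHF ketotifen against CHF placebo ranged over -0.19 to 0.25 for Mx2 1387283_at and -0.22 to 0.23 for Ifi44l. CHF ketotifen against sham ketotifen ranged over -0.04 to 0.60 and -0.17 to 0.60 for Ifit2, -1.02 to 0.14 for Isg15, -0.70 to 0.58 for Mx1 and -0.09 to 1.10 for Rsad2. Sham ketotifen against sham placebo ranged over -0.06 to 0.37 for Cxcl10, -0.27 to 0.31 for Mx2 1369202_at, -0.09 to 0.16 for Cxcl9 and -0.04 to 0.16 for Myd88, and the interaction over -0.28 to 0.56 for Ifit2 1379568_at, -0.68 to 0.60 for Mx1 and -0.65 to 0.59 for Rsad2. In the order CHF placebo against sham placebo, CHF ketotifen against CHF placebo, CHF ketotifen against sham ketotifen, sham ketotifen against sham placebo and interaction, leaving out 1 lung gave 0 to 0, 1 to 1, 2 to 3, 0 to 1 and 0 to 2 of the 9 genes, 0 to 5, 0 to 4, 1 to 10, 0 to 4 and 0 to 0 of the 65 further genes, and 0 to 1491, 59 to 1211, 708 to 2759, 3 to 699 and 13 to 303 probe sets, against 28, 201, 2145, 14 and 61 with all lungs. Without the filter the probe sets called were 9 for the first comparison, 1156 for the third and 36 for the interaction, and the further genes were 0 in the second. With lungs 1 and 3 averaged the probe sets were 16, 60, 878, 8 and 14, and the further genes 0 in the second and 3 in the third. Without the 3 lungs of lowest integrity the probe sets were 1023 in the third, and no count is given where the single sham placebo lung left was used. Without the filter and with lungs 1 and 3 averaged, 0 of the 9 genes were called in the fourth comparison and in the interaction. The replicate numbers did not pair lungs (r of same-numbered deviations from -0.35 to 0.26); with the replicate block, the probe sets were 6 in the fourth comparison and 37 in the interaction, and the further genes 0 in the second. The causes were not tested.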

Other observations

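Outside the interferon lists, the gene whose profile was most like that of Ifit1 over the 12 arrays was RT1-N2, a class Ib major histocompatibility gene of the rat (r = 0.922). It was chosen after its values were seen. Its log2 signal was 7.41, 6.97 and 4.29 in sham ketotifen lungs and 2.64 to 2.81 in the other 9 lungs, so the signal stood in 1 group only. It passed the filter on dim probe sets through that group alone, so no test is given.

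The Mx2 probe sets also had different neighbours, again picked after the values were seen. Those most like 1369202_at were Rcan1 (r = 0.941), Depdc7 (0.94), Cpxm2 (0.937), Fem1b (0.934) and C1qa (0.934), the last a complement gene of macrophages. Those most like 1387283_at were Ddx60 (0.926), Ly6e (0.907), Znfx1 (0.9), Irgm2 (0.887) and Gbp4 (0.886), several of them known interferon targets. The correlations are over 12 arrays and carry no test.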
